A study of Mus musculus with 12 samples.

Results

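The S100 proteins are small calcium-binding proteins, and 10 of their genes were followed here on 12 bead arrays of newborn mouse tissue: S100a8 and S100a9, and beside them S100a1, S100a3, S100a4, S100a6, S100a10, S100a11, S100a14 and S100a16. Members were taken by gene symbol, as every probe of the array annotated to one of these symbols. That gave 11 probes, 1 for each gene and a further probe for S100a14, of 45281 probes on the array; all 10 genes were among the 12099 genes tested, and 10 of the 11 probes were detected on all 12 arrays. The study asked how loss of keratin 1, a structural keratin of the differentiating epidermal layers, changes gene expression in the skin at birth. All animals were C57BL/6 and at postnatal day 0, and the tissue was either epidermis or skin of full thickness. There were 3 arrays of each tissue with intact keratin 1 (Krt1+/+) and 3 of each tissue from animals without it (Krt1-/-). Whether replicate arrays come from different animals is not stated in the labels, so each p-value measures the spread between these arrays, which may be technical.

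An S100 protein carries a pair of EF-hand loops, most of which bind calcium, and usually works as a dimer that docks onto a partner when calcium rises. S100a8 and S100a9 pair with each other as calprotectin, which binds metals needed by microbes and, once outside the cell, acts as an alarmin through receptors such as Tlr4 and Ager. Neutrophils store calprotectin, and keratinocytes make it when the epidermis is wounded or inflamed. Most other family members are housekeeping or differentiation proteins of keratinocytes, fibroblasts, muscle or hair, several of them partners of annexins.

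The start regions of S100a8 and S100a9 are shown because these genes moved together across the arrays. Both sequences are from RefSeq on build GRCm38.p6, run 5′ to 3′ on the gene's own strand and cover 250 bases before to 50 bases after the annotated start. S100a8 lies at chr3:90668821-90669120 on the plus strand and S100a9 at chr3:90695672-90695971 on the minus strand. Capitals mark every match to the C/EBP motif TTNNGNAA and to the TATA box motif TATAAA.
S100a8: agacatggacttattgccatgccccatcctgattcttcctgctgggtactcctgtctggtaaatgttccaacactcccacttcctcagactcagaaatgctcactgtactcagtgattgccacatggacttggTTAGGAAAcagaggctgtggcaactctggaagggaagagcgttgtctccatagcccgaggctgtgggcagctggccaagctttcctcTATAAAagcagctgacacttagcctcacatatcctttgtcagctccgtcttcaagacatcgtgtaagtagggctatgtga
S100a9: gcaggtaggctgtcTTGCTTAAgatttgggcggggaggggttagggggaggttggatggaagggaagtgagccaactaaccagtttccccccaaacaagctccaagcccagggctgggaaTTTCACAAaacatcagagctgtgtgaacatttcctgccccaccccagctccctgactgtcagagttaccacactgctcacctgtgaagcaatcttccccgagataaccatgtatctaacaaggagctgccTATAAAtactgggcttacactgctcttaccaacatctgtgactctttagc
The C/EBP motif occurred 1 time in the S100a8 window, starting at −117 from the annotated start, and 2 times in the S100a9 window, at −236 and −130. The TATAAA motif began at −30 in S100a8 and at 0, the annotated start itself, in S100a9. The AP-1 motif TGANTCA was found 0 times in either window. Each motif was searched on both strands, and no C/EBP match overlapped a TATAAA match. Of 32851 annotated mouse promoter windows of the same length, 40.7% held the C/EBP motif, 13.6% TATAAA and 7.81% the AP-1 motif. Windows were found for 8 of the 10 genes, not for S100a10 and S100a14. S100a11 was the gene with 2 AP-1 matches, at −136 and −38, and 1 of the S100a16 windows had 1, at −192. Among the other members, the C/EBP motif also occurred in S100a3 windows, at −116 and −198. TATAAA occurred in another S100a3 window, at −52, and in the S100a4 window, at −31. A match is a run of letters and is not evidence that a factor binds there.

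Signal medians of the arrays lay between 93.3 and 105.1 intensity units, and 37.9% to 44.0% of probes were detected (detection p under 0.05). The tissue labels were checked with marker genes. All 7 keratinocyte markers on the array were detected on all 12 arrays. The summed level of 8 striated muscle markers was 46182 to 94179 on skin arrays and 285 to 3474 on epidermis arrays, and that of 8 fibroblast markers was 24276 to 41706 against 4458 to 8430. Krt1 read 1417, 2404 and 5954 intensity units, in rising order, in Krt1+/+ epidermis and 987, 1107 and 2921 on the arrays labelled Krt1-/- epidermis. It read 1794, 4329 and 5915 in Krt1+/+ skin and 183, 280 and 319 in Krt1-/- skin. The 3 Krt1-/- skin arrays lay below all the others, while the epidermis groups overlapped. The log2 change of Krt1 was −4.71 in skin (limma adjusted p = 8.12e-05) and −1.08 in epidermis (adjusted p = 0.183). Directions in epidermis therefore rest on the labels of those arrays, and the position of the probe relative to the deletion is unknown here, so it checks the labels only where its signal falls.

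The sample columns of the deposited tables fall into a first set of 6, holding Krt1+/+ epidermis and Krt1-/- skin, and a last set of 6, holding Krt1-/- epidermis and Krt1+/+ skin. Over 16240 probes undetected on every array, groups of the same set correlated at −0.0369 and −0.0182, and groups of different sets at −0.156 to −0.130. Within a tissue, genotype and column set cannot be told apart. The average of the genotype effects in both tissues equals a fit with the set as an additive block, so it is given beside the values of the tissues. In bulk tissue, more cells that make an RNA and more of that RNA per cell cannot be told apart either.

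S100a8 and S100a9 rose in Krt1-/- tissue in both epidermis and skin, and no other member came near their change. S100a8 read 436, 158 and 172 intensity units in Krt1+/+ epidermis (replicates 1, 2 and 3) and 2744, 6415 and 4405 in Krt1-/- epidermis. In skin it read 444, 338 and 182 on the Krt1+/+ arrays and 5046, 2668 and 1289 on the Krt1-/- arrays. Every one of the 6 Krt1-/- arrays thus lay above every one of the 6 Krt1+/+ arrays. S100a9 read 526, 196 and 212 in Krt1+/+ epidermis and 5161, 7633 and 5743 in Krt1-/- epidermis. In skin S100a9 read 519, 346 and 146 on the Krt1+/+ arrays and 7312, 3084 and 2378 on the Krt1-/- arrays. Again the genotypes did not overlap, and the order of group means was the same for both genes: Krt1-/- epidermis, then Krt1-/- skin, whose arrays overlapped, then Krt1+/+ skin and Krt1+/+ epidermis, whose arrays overlapped too.

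**Figure D1:**
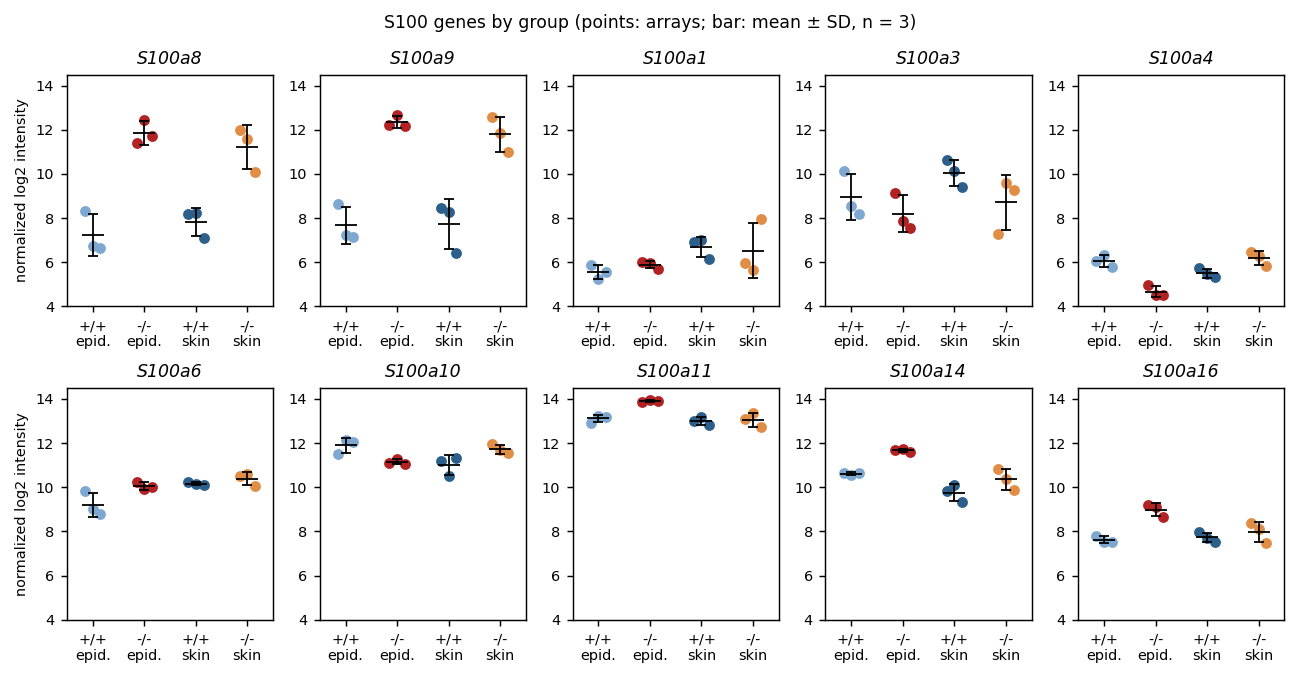
Normalized log2 intensity (vertical axis) of the 10 S100 genes in the 4 groups (horizontal axis); points are arrays and bars the mean ± SD (n = 3). The Krt1-/- arrays of S100a8 and S100a9 stand clear of the Krt1+/+ arrays in both tissues, while the other genes show small shifts or overlap.

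On the normalized log2 scale S100a8 went from 7.23 ± 0.94 to 11.85 ± 0.54 in epidermis (SD, n = 3 each). That is a rise of 4.62 (95% confidence interval 3.49 to 5.75), or 24.6-fold, with limma adjusted p = 3.87e-05. In skin it went from 7.82 ± 0.64 to 11.22 ± 1.01, a rise of 3.40 (2.27 to 4.54), or 10.6-fold (adjusted p = 0.000379). S100a9 rose by 4.68 in epidermis (3.54 to 5.83, 25.7-fold, adjusted p = 3.87e-05) and by 4.08 in skin (2.93 to 5.23, 16.9-fold, adjusted p = 0.000117). Averaged over both tissues, the rise was 4.01 for S100a8 (3.21 to 4.81, adjusted p = 9.09e-06) and 4.38 for S100a9 (3.57 to 5.19, adjusted p = 4.75e-06). Ranked from the largest rise among 12099 genes, S100a8 stood at 15 in epidermis and 46 in skin, and S100a9 at 14 and 30. Their lowest Krt1+/+ signals lie near the array background, while others lie well above it. The normalization adds an offset of 16, so these folds may be compressed.

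The rise of the alarmins was of like size within each column set. Inside the first set, Krt1-/- skin exceeded Krt1+/+ epidermis by 3.99 (log2) for S100a8 and by 4.13 for S100a9. Inside the last set, Krt1-/- epidermis exceeded Krt1+/+ skin by 4.03 and 4.63. The effect in epidermis minus that in skin was 1.22 for S100a8 (−0.38 to 2.82, adjusted p = 0.239) and 0.60 for S100a9 (−1.02 to 2.22, adjusted p = 0.589), so a difference between the tissues was not detected, with intervals that still allow a sizeable one. Between the tissues themselves, the average over genotypes was −0.02 for S100a8 (−0.82 to 0.78) and −0.25 for S100a9 (−1.06 to 0.56), skin minus epidermis, neither of which passed. With each array left out in turn, the averaged rise ranged from 3.81 to 4.29 for S100a8 and from 4.07 to 4.62 for S100a9.

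Neutrophils are also rich in calprotectin, so their markers are given beside these values. Of 14 neutrophil markers on the array, 0 were detected on all 3 arrays of either epidermis group. In Krt1+/+ epidermis 10 of the 14 were detected on no array, and in Krt1-/- epidermis 7 were (Elane, Mpo, Prtn3, Ngp, Mmp8, Cd177 and Fcnb). Several of these 7, such as Elane and Mpo, are granule genes transcribed mainly in bone marrow precursors, so their RNA is low in mature neutrophils too. Their summed normalized level was 57 to 105 in Krt1+/+ epidermis and 99 to 150 in Krt1-/- epidermis. Of the 8 that could be tested, 0 passed in epidermis by limma, 2 of them with an unadjusted p under 0.05. These were Retnlg (1.00, adjusted p = 0.109) and the chemokine receptor gene Cxcr2 (0.51, adjusted p = 0.0937), each detected on 0 Krt1+/+ and 2 Krt1-/- epidermis arrays. In skin the sum was 106 to 202 on the Krt1+/+ arrays and 242 to 373 on the Krt1-/- arrays, and 2 of 8 passed, both higher. These were the granule protein gene Ltf (1.30, adjusted p = 0.000972) and Retnlg (1.78, adjusted p = 0.00997). On average over both tissues 3 of 8 rose and 0 fell: Ltf (0.67, adjusted p = 0.00871), Retnlg (1.39, adjusted p = 0.00709) and Cxcr2 (0.55, adjusted p = 0.0206). Of all genes tested, 31.8% passed in epidermis, 30.7% in skin and 24.2% on average. Within Krt1-/- skin, replicate 1 had the highest and replicate 3 the lowest value of S100a8, S100a9 and the neutrophil sum alike. This order is not particular to them. It also held for the normalized values of S100a4, S100a10, S100a14 and S100a16, though not for S100a1, S100a3, S100a6 or S100a11. The part of neutrophils in the alarmin values was not tested in either tissue.

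The summed level of 8 macrophage markers lay higher in skin than in epidermis in both genotypes. It was 399 to 826 in Krt1+/+ epidermis, 541 to 1077 in Krt1-/- epidermis, 3079 to 4389 in Krt1+/+ skin and 2096 to 3159 in Krt1-/- skin. Itgam was undetected in both epidermis groups. Of 7 tested, 1 was higher in Krt1-/- epidermis, and in skin 1 was higher and 2 lower, where 31.8% and 30.7% of all genes passed.

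**Figure D2:**
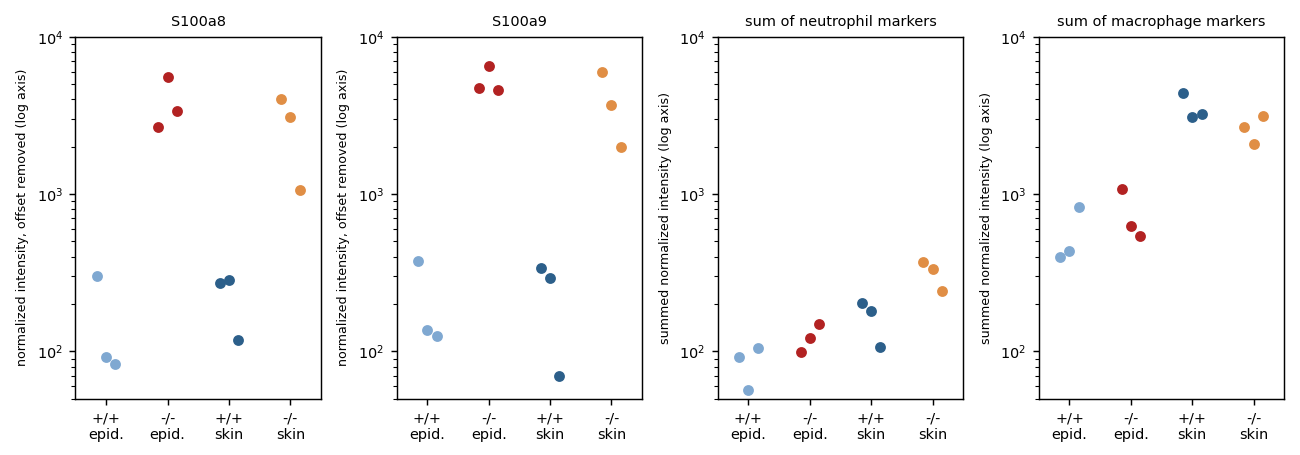
Normalized intensity of S100a8 and S100a9 with the offset removed, and the summed normalized intensity of the neutrophil and macrophage markers (vertical log axes), on each array of the 4 groups (horizontal axis). The neutrophil sum is 57 to 105 in Krt1+/+ and 99 to 150 in Krt1-/- epidermis, and 106 to 202 in Krt1+/+ and 242 to 373 in Krt1-/- skin.

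Across the family, 8 of 10 members passed in epidermis (6 higher, 2 lower), where 31.8% of all genes tested passed, 15% higher and 16.8% lower. In skin 4 of 10 passed, all higher, against 30.7% of all genes, 14.4% higher and 16.2% lower. In the average over both tissues 6 of 10 passed, all higher, against 24.2% of all genes, 10.9% higher and 13.2% lower. The effect differed between the tissues for 4 of 10 members, against 30.9% of all genes. Over single probes, 8 of the 11 passed in epidermis, 5 in skin and 7 on average, where 32.1%, 28% and 20.1% of 21712 probes did. With so many genes passing, a count of members says little by itself, and the sizes separate the alarmins from the rest. The mean log2 change of S100a8 and S100a9 was 4.65 in epidermis, against 0.19 for the other 8 members, which ran from −1.39 to 1.37. In skin it was 3.74 against 0.13, with the others from −1.33 to 0.73. The largest change among the other 8 was 2.62-fold in epidermis and 2.52-fold in skin, both downward: S100a4, which passed, and S100a3, which did not. The size for S100a4 depends on the background step: its log2 change of −1.39 was −0.48 without background correction, and it was detected on 1 of 3 Krt1-/- epidermis arrays. The rise of S100a16 in epidermis, 2.59-fold, was nearly as large and ran from 1.09 to 1.55 on the log2 scale over the processing settings. The median over the 10 members was 0.82 in epidermis and 0.43 in skin, beside −0.00 and −0.07 for all genes. S100a8 and S100a9 were the 2 members of 10 whose Krt1-/- arrays lay above the Krt1+/+ arrays in each tissue, as 4.72% of all genes did.

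**Figure D3:**
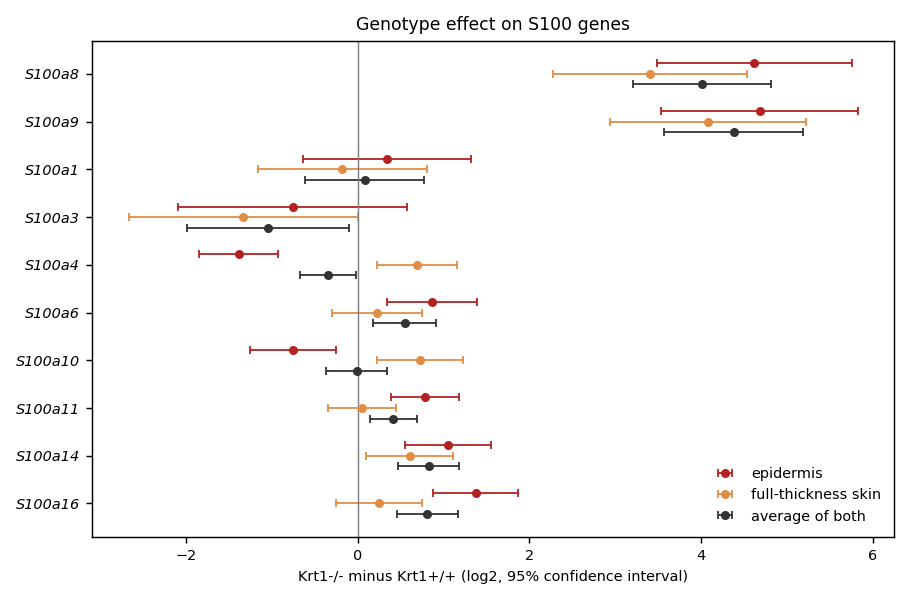
Krt1-/- minus Krt1+/+ on the log2 scale (horizontal axis) with its 95% confidence interval for each S100 gene, in epidermis, in full-thickness skin and averaged over both. S100a8 and S100a9 lie between 3.40 and 4.68, and no other gene exceeds 1.37.

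Among the other members, S100a14, S100a16, S100a11 and S100a6 rose in epidermis. S100a16, a broadly expressed member, read 325, 222 and 258 intensity units in Krt1+/+ epidermis and 636, 692 and 565 in Krt1-/- epidermis. The groups did not overlap, and the log2 rise was 1.37 (0.87 to 1.87, 2.59-fold, limma adjusted p = 0.000696). In skin it read 401, 269 and 217 on the Krt1+/+ arrays and 462, 295 and 276 on the Krt1-/- arrays, which overlapped (0.25, adjusted p = 0.461). The effect in epidermis exceeded that in skin by 1.13 (0.42 to 1.83, adjusted p = 0.0188), a difference that no longer passed without Krt1+/+ skin replicate 1 (1.03, adjusted p = 0.0501). Averaged over both tissues S100a16 rose by 0.81 (adjusted p = 0.00337).

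S100a11, a partner of annexin A1 that is found in the cornified envelope, was bright on every array. It read 8561, 9288 and 10864 in Krt1+/+ epidermis and 15519, 16645 and 18144 in Krt1-/- epidermis, with no overlap. The rise was 0.78 (0.39 to 1.18, 1.72-fold, adjusted p = 0.00548). In the Krt1-/- epidermis S100a11 stood on average at 63.1% of the brightest probe of its array, so its fold may be compressed at the upper end. The skin arrays read 7992, 6940 and 4884 with keratin 1 and 10417, 8697 and 7902 without it, which overlapped, and the change was 0.05 (−0.34 to 0.45, adjusted p = 0.866). The averaged rise was 0.42 (adjusted p = 0.0319) and did not pass when any 1 of 8 of the 12 arrays was left out (0.34 to 0.51 over all 12).

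S100a6, or calcyclin, a member of dividing cells and fibroblasts, read 1073, 522 and 511 in Krt1+/+ epidermis and 1251, 1191 and 1364 in Krt1-/- epidermis. Replicate 1 of the Krt1+/+ group lay near the Krt1-/- arrays, and the groups did not overlap. The rise of 0.86 (0.34 to 1.38, adjusted p = 0.0156) did not pass without Krt1+/+ epidermis replicate 2 (0.77, adjusted p = 0.0628) or 3 (0.65, adjusted p = 0.0694), or without Krt1-/- epidermis replicate 1 (0.77, adjusted p = 0.0593). In skin the change was 0.23 (adjusted p = 0.517). The averaged rise was 0.55 (adjusted p = 0.0338) and did not pass when any 1 of 9 of the 12 arrays was left out (0.44 to 0.70 over all 12).

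S100a14, an epithelial member, was read by 2 probes that did not give the same picture. Probe ILMN_2777308, the brighter and the one used for the gene, read 1824, 1369 and 1625 in Krt1+/+ epidermis and 3512, 4045 and 3942 in Krt1-/- epidermis. In skin this probe read 1129, 932 and 520 against 2250, 1142 and 1136 in Krt1-/-. Probe ILMN_2779858 read 1548, 1323 and 1409 against 1817, 1649 and 1764 in epidermis, and 732, 686 and 427 against 2039, 1176 and 1080 in skin. After normalization the genotypes did not overlap for the first probe in epidermis and for the other in skin, and overlapped otherwise. In the fit over single probes, the first rose by 1.05 in epidermis (adjusted p = 0.00397) and changed by 0.61 in skin (adjusted p = 0.0694), while the other changed by 0.08 in epidermis (adjusted p = 0.826) and rose by 1.10 in skin (adjusted p = 0.00287). The average over both tissues passed for each, at 0.83 (adjusted p = 0.00364) and 0.59 (adjusted p = 0.0195), the latter not without Krt1-/- epidermis replicate 1 (0.53) or Krt1+/+ skin replicate 3 (0.54). The part of the transcript that each probe reads is unknown here.

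S100a4 and S100a10 went opposite ways in the tissues and followed the column sets. S100a10, or p11, is the partner of annexin A2 and a member that has lost calcium binding. It read 3213, 3935 and 4399 intensity units in Krt1+/+ epidermis and 2286, 2986 and 2791 in Krt1-/- epidermis, a fall of 0.75 on the log2 scale (limma adjusted p = 0.0257). The skin arrays read 2526, 1187 and 1715 on the Krt1+/+ arrays and 4972, 2753 and 3521 on the Krt1-/- arrays, a rise of 0.73 (adjusted p = 0.031). The epidermis change no longer passed when replicate 2 (−0.64) or 3 (−0.67) of the Krt1+/+ group, or replicate 1 (−0.72) or 3 (−0.71) of the Krt1-/- group, was left out. The skin change no longer passed when replicate 2 of the Krt1+/+ group (0.48), or replicate 1 (0.61) or 2 (0.75) of the Krt1-/- group, was left out. Across tissues its log2 level was 11.82 ± 0.27 in the first column set and 11.08 ± 0.30 in the last (SD, n = 6 each), with no overlap, and the averaged genotype effect was −0.01 (−0.37 to 0.34, adjusted p = 0.967).

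S100a4, known as fibroblast-specific protein and a partner of non-muscle myosin, was dim. It read 150, 136 and 131 in Krt1+/+ epidermis and 105, 106 and 106 in Krt1-/- epidermis, where it was detected on 1 of 3 arrays. The log2 change there was −1.39 (adjusted p = 0.00038), or −0.48 without background correction, which also passed. In skin it read 152, 123 and 110 on the Krt1+/+ arrays and 182, 143 and 142 on the Krt1-/- arrays. After normalization these groups did not overlap, and the rise was 0.69 (adjusted p = 0.0267), which no longer passed when replicate 2 (0.68) or 3 (0.60) of the Krt1+/+ group, or replicate 1 (0.55) or 2 (0.65) of the Krt1-/- group, was left out. Its level was 6.12 ± 0.28 in the first column set and 5.08 ± 0.50 in the last, again with no overlap, and the averaged effect was −0.35 (−0.68 to −0.02, adjusted p = 0.114). The summed level of fibroblast markers was lower in Krt1-/- than in Krt1+/+ epidermis (4458 to 5738 against 5789 to 8430), where S100a4 fell. It was also lower in Krt1-/- than in Krt1+/+ skin (24276 to 26907 against 38723 to 41706), where S100a4 rose, and its part in the S100a4 values was not tested. The other 8 members overlapped between the column sets. The share of all genes whose levels separate by column set was not counted, so the separation cannot be called particular to S100a4 and S100a10.

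**Figure D4:**
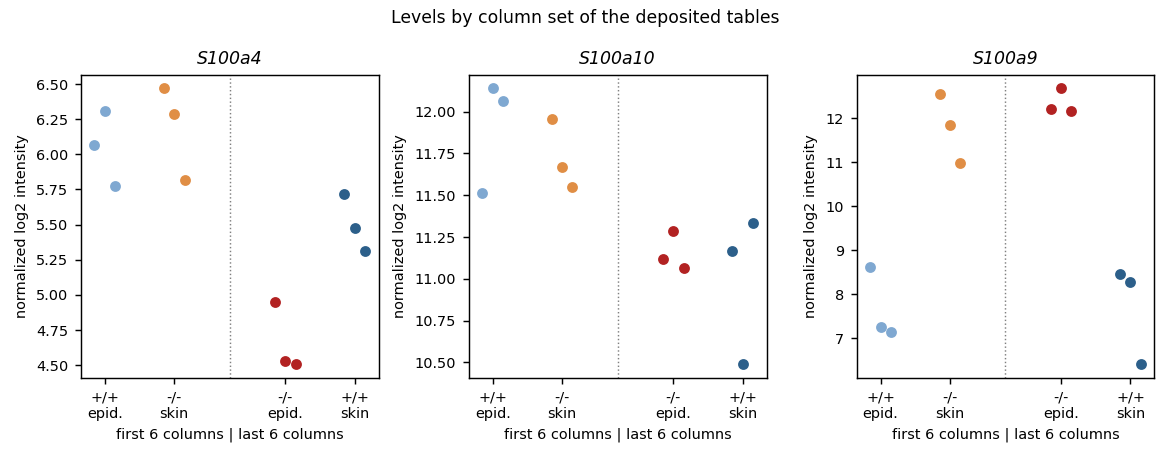
Normalized log2 intensity (vertical axes, scaled per gene) of S100a4, S100a10 and S100a9 on each array, ordered by the first and last 6 sample columns of the deposited tables (horizontal axis). S100a4 and S100a10 separate the column sets without overlap, while S100a9 separates the genotypes within each set.

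S100a3 and S100a1 did not pass in either tissue. S100a3, a protein of the hair cuticle, read 1310, 392 and 358 in Krt1+/+ epidermis and 606, 333 and 291 in Krt1-/- epidermis. On skin arrays it read 1838, 932 and 540 on the Krt1+/+ arrays and 259, 699 and 766 on the Krt1-/- arrays. The groups overlapped in both tissues, and the averaged change was −1.04 (−1.99 to −0.10, limma adjusted p = 0.102). The summed level of 9 hair follicle markers was 4375 to 9609 in Krt1+/+ epidermis, 1988 to 3337 in Krt1-/- epidermis, 7951 to 13139 in Krt1+/+ skin and 2102 to 10100 in Krt1-/- skin. Of 7 hair follicle markers tested, 2 fell in each tissue, Shh (average −1.47, adjusted p = 8.51e-05) and Sox9 (average −0.98, adjusted p = 0.00041). Among all genes, 16.8% fell in epidermis and 16.2% in skin. Krt1-/- skin replicate 1 held the lowest value of its group both for S100a3 and for the hair follicle sum. Their part in the S100a3 values was not tested.

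S100a1, a regulator of calcium handling in heart and skeletal muscle, read 140, 105 and 124 in Krt1+/+ epidermis and 133, 145 and 136 in Krt1-/- epidermis. Skin arrays read 245, 203 and 134 with keratin 1 against 152, 120 and 353 in Krt1-/-, where replicate 3 stood alone at the top. Its skin change was −0.18 (adjusted p = 0.807) with all arrays and −0.89 (adjusted p = 0.0259) without that replicate, and its average over both tissues was 0.08 (adjusted p = 0.883). The muscle marker sum was 46182, 81193 and 49331 on Krt1-/- skin replicates 1, 2 and 3. Its part in the S100a1 values was not tested.

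Between the tissues, averaged over genotypes, 6 of 10 members passed (3 higher and 3 lower in skin), where 42.4% of all genes did (18.7% higher, 23.7% lower). Higher in skin were S100a1 by 0.88 (limma adjusted p = 0.0407), S100a6 by 0.64 (adjusted p = 0.0087) and S100a4 by 0.49 (adjusted p = 0.0191). In Krt1+/+ tissue alone S100a4 changed by −0.55, skin minus epidermis (adjusted p = 0.055), which did not pass. Its normalized arrays lay lower in skin without overlap, as did those of 3356 of 12099 genes, while its raw intensities overlapped. In Krt1-/- tissue the log2 mean of S100a4 was 4.66 in epidermis and 6.19 in skin. The call for S100a1 ended when any 1 of 7 arrays was left out (0.52 to 1.11 over all 12), and that for S100a4 without Krt1+/+ skin replicate 1 (0.42). Without background correction S100a1 (0.46, adjusted p = 0.0876) and S100a4 (0.16, adjusted p = 0.0713) did not pass, and with median centring S100a6 did not (0.44, adjusted p = 0.122). Lower in skin were S100a14 (−1.09, adjusted p = 0.000157), S100a11 (−0.48, adjusted p = 0.00904) and S100a16 (−0.45, adjusted p = 0.0425), the last of which did not pass when any 1 of 9 arrays was left out (−0.54 to −0.32 over all 12) or with median centring (−0.50, adjusted p = 0.0817). In Krt1+/+ mice alone, where tissue and column set cannot be told apart, 3 of 10 passed against 41.7% of all genes (19.8% higher, 22% lower). S100a6 was higher in Krt1+/+ skin by 0.96 (adjusted p = 0.00598; with median centring 0.72, adjusted p = 0.0782), and S100a10 (−0.91, adjusted p = 0.00651) and S100a14 (−0.86, adjusted p = 0.0091) were lower.

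The genes nearest to the alarmins over all 12 arrays were sought by the root mean square difference of log2 values, each gene centred on its own mean. S100a8 and S100a9 were each other's nearest gene of 12098, at 0.38, where the median gene stood at 2.20 from S100a8 and 2.36 from S100a9. After S100a9, the genes nearest to S100a8 were Krt6a, a keratin of wounded epidermis (0.61), Lce3a, a late cornified envelope gene of barrier repair (0.69), Il33, an alarmin cytokine (0.70), and Sprr2j-ps, a pseudogene of the small proline-rich family (0.73). Nearest to S100a9 were Krt6a (0.62), Il33 (0.66), the small proline-rich gene Sprr2i (0.69) and the antimicrobial beta-defensin gene Defb4 (0.74). These genes were picked by likeness over the same arrays, so large genotype effects of their own follow from the choice. In epidermis and skin those effects were 4.72 and 4.12 for Krt6a, 4.79 and 4.79 for Il33, and 4.85 and 3.71 for Defb4. Sequences of Sprr2 genes are closely related, so their probes may share signal.

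**Figure D5:**
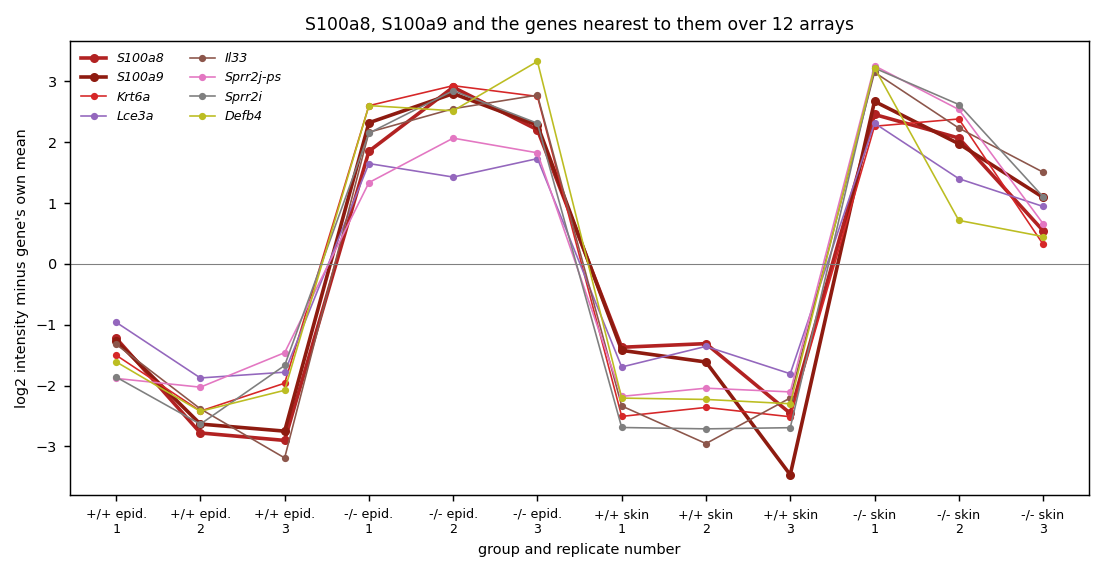
Log2 intensity minus the gene's own mean (vertical axis) for S100a8, S100a9 and the genes nearest to them, on each of the 12 arrays by group and replicate number (horizontal axis). All lines are low on the 6 Krt1+/+ arrays and high on the 6 Krt1-/- arrays, and most dip toward the mean on Krt1-/- skin replicate 3. The genes were chosen for their likeness to S100a8 or S100a9 on these arrays.

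In the order of protein-coding genes on chromosome 3 of the same assembly, S100a1, S100a13, S100a14, S100a16, S100a3, S100a2, S100a4, S100a5, S100a6, S100a7a, S100a8 and S100a9 follow one another without a break. S100a11 and S100a10 sit next to each other at places 69 and 70 of the same count. Position in the row did not go with one pattern: S100a3 and S100a4, near its middle, changed by −0.76 (not passed) and −1.39 in Krt1-/- epidermis, and lie between S100a16 and S100a6, which rose. Of 7 further genes listed, which are S100 genes and S100pbp, the gene of an S100P-binding protein, 3 were measured. S100a7a, the mouse relative of human psoriasin and the neighbour of S100a8, rose by 2.01 in epidermis (limma adjusted p = 0.00109), changed by 0.77 in skin (adjusted p = 0.129), and rose by 1.39 on average (adjusted p = 0.00191). It was detected on 1 of 3 Krt1+/+ epidermis and 2 of 3 Krt1+/+ skin arrays, near background, so these sizes are not firm. S100a13 rose by 0.82 in epidermis (adjusted p = 0.019) and was lower by −0.68 in skin (adjusted p = 0.0447), with an average of 0.07 (adjusted p = 0.81). S100pbp passed in neither tissue nor on average.

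The fused-type genes join an S100 domain to a long repeat region and encode cornified envelope proteins. Of 5 listed, 3 were measured, and in skin all 3 rose, in epidermis 2, where 14.4% and 15% of all genes did. Rptn (repetin) rose by 4.31 in epidermis (19.8-fold, limma adjusted p = 1.06e-06) and by 6.51 in skin (91.1-fold, adjusted p = 1.12e-08), on average by 5.41 (adjusted p = 1.22e-09). Crnn (cornulin) rose by 2.01 and 1.06 (adjusted p = 0.00028 and 0.0161), on average by 1.54 (adjusted p = 0.00025). Crnn was detected on 1 of 3 Krt1+/+ epidermis arrays. Its log2 mean was near background in Krt1+/+ epidermis (4.64) and Krt1+/+ skin (4.74). Tchhl1 changed by 0.25 in epidermis (adjusted p = 0.706) and rose by 1.59 in skin (adjusted p = 0.0125), on average by 0.92 (adjusted p = 0.0402). The log2 mean of Tchhl1 was near background in Krt1+/+ skin (5.07), though it was detected on all 3 arrays there. The median of these 3 genes was 2.01 in epidermis and 1.59 in skin.

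Of 10 annexins and other partners of S100 proteins, all measured, 1 rose and 3 fell in epidermis, and 3 rose and 3 fell in skin, with medians of −0.06 and −0.07 beside −0.00 and −0.07 for all genes. Of all genes, 31.8% passed in epidermis and 30.7% in skin. The 3 that fell in epidermis were the 3 that rose in skin, and the 1 that rose in epidermis fell in skin. The share of all genes called opposite ways was not counted. By limma's test of the difference, the epidermis effect was above the skin effect for 3 of the 10 and below it for 3. Of all genes, 30.9% passed that test. Within a tissue, genotype and column set cannot be told apart. Anxa1, the partner of S100a11, fell by 1.70 on the log2 scale in epidermis (limma adjusted p = 0.00115) and rose by 3.12 in skin (adjusted p = 1.36e-05), and on average rose by 0.71 (adjusted p = 0.0321). Its log2 means were 11.39 and 10.52 in the first column set (Krt1+/+ epidermis, Krt1-/- skin). In the last set they were 9.69 and 7.40 (Krt1-/- epidermis, Krt1+/+ skin). Anxa6 changed by 0.46 in epidermis (adjusted p = 0.231) and by −2.41 in skin (adjusted p = 4.39e-05), with an average of −0.97 (adjusted p = 0.00334). Ahnak, which binds the S100a10 and annexin A2 complex, passed in neither tissue nor on average (−0.25, adjusted p = 0.15).

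Of 10 listed receptors and signalling partners of calprotectin, 8 were measured. In epidermis 4 rose and 2 fell, in skin 1 rose and 1 fell, and on average 4 rose and 3 fell. Of all genes tested, 31.8% passed in epidermis, 30.7% in skin and 24.2% on average. Myd88, the adaptor of Toll-like receptors, rose by 0.80 in epidermis (limma adjusted p = 0.00848) and by 0.66 on average (adjusted p = 0.00487). In skin Myd88 changed by 0.52 (adjusted p = 0.065), which did not pass. Alcam, an adhesion molecule reported to bind calprotectin, was lower by −2.39 in epidermis (adjusted p = 5.71e-06) and higher by 0.72 in skin (adjusted p = 0.0198), opposite ways as for S100a10, and its average was −0.83 (adjusted p = 0.00157). Mcam, another such adhesion molecule, changed by −0.59 in epidermis (adjusted p = 0.0885) and by −1.68 in skin (adjusted p = 0.000295), with an average of −1.13 (adjusted p = 0.000607). The list median was 0.20 in epidermis and 0.26 in skin.

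Of 15 transcription factors and cytokines known to act upstream of S100a8 and S100a9, 11 were measured. In epidermis 5 rose and 1 fell, and in skin 5 rose and 0 fell, with medians of 0.27 and 0.51. Among all genes tested, 15% rose and 16.8% fell in epidermis, and 14.4% rose and 16.2% fell in skin. Junb, an AP-1 subunit, rose by 2.44 in epidermis (limma adjusted p = 6.31e-05) and by 0.86 in skin (adjusted p = 0.0414), on average by 1.65 (adjusted p = 0.000138). Il1b rose by 2.25 in epidermis (adjusted p = 0.000937) and 1.58 in skin (adjusted p = 0.00914), on average by 1.91 (adjusted p = 0.000395). Il1b was detected on 2 of 3 Krt1+/+ skin arrays. Its log2 mean was near background in Krt1+/+ epidermis (4.98) and Krt1+/+ skin (4.65). Il1a, the interleukin 1 that keratinocytes store, changed by 0.27 in epidermis (adjusted p = 0.61) and rose by 2.31 in skin (adjusted p = 0.000352), on average by 1.29 (adjusted p = 0.00253).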

How the data were processed

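The authors deposited a table of mean bead intensity per probe on a linear scale, without background subtraction or scaling between arrays, with a detection p-value per probe and array, per the file headers. A second table deposited by the authors holds normalized intensity values and served as an alternative. RNA was amplified to biotin-labelled cRNA, per the labels' protocols. Intensities were background-corrected and quantile normalized by neqc (R 4.3.3, limma 3.58.1, offset 16) and taken as log2. A probe was kept with detection p under 0.05 on at least 3 of 12 arrays (21712 probes), and each gene took its brightest kept probe by mean. A limma fit of the 4 groups gave each contrast, with Benjamini-Hochberg adjustment over 12099 genes, or 21712 probes where single probes were fitted, and a threshold of 0.05. The fit was tested on simulated data. With 3 arrays a group, precision is limited by their number. Up to 3 genes per list with the smallest unadjusted p in the averaged contrast were named, with the 5 genes nearest to each alarmin. The members, lists and tests were chosen with earlier results of these data known. Alternatives covered background correction, normalization, filter, probe rule, variance model, arrays fitted, replicate number as a block and each array left out. Same-numbered arrays of different groups deviated together at correlations of −0.212 to 0.279, above 0.1 in 2 of 18 pairs.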

Additional observations from a re-analysis of the deposited data

Results flagged for a closer look

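For 4 of the 10 S100 genes the genotype effect in epidermis differed from that in skin by limma's test of the difference, where 30.9% of all genes tested did. The difference, epidermis minus skin on the log2 scale, was −2.08 for S100a4 (adjusted p = 0.000191) and −1.48 for S100a10 (adjusted p = 0.00415), the genes whose levels did not overlap between the first and last 6 sample columns. It was 1.13 for S100a16 (adjusted p = 0.0188) and 0.73 for S100a11 (adjusted p = 0.0461). In this design the difference cannot be told apart from an additive difference between the column sets. That for S100a11 passed neither with median centring (0.35, adjusted p = 0.454) nor without any 1 of 10 of the 12 arrays (0.56 to 0.78).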

How the results depend on the processing

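The rises of S100a8 and S100a9 in epidermis, in skin and on average passed under every alternative run, and no called value of a member changed sign. In epidermis the rise ranged from 3.98 to 5.16 for S100a8 and from 4.19 to 5.16 for S100a9 over processing settings and left-out arrays. With each array left out in turn, the number of members passing was 6 to 8 in epidermis, 2 to 6 in skin (2 without Krt1-/- skin replicate 1 or 2), 4 to 6 on average and 2 to 4 for the difference of effects (2 without Krt1+/+ skin replicate 1). Over single probes it was 3 to 7 of 11 in skin and 4 to 7 on average (4 without Krt1-/- epidermis replicate 1 or Krt1+/+ skin replicate 3), beside 5 and 7 with all arrays, and 3 in skin with no detection filter. In Krt1+/+ tissue 5 members passed between tissues when only those arrays were fitted, against 3. With median centring 1848 genes passed on average (1127 higher, 721 lower), against 2925 (1324 higher, 1601 lower), and the calls of S100a10 in epidermis (−0.54, adjusted p = 0.19) and S100a4 in skin (0.55, adjusted p = 0.136) were lost. That of S100a10 in skin was lost with only the arrays of the comparison (0.73, adjusted p = 0.0593). With the mean of its probes, S100a14 changed by 0.57 in epidermis (adjusted p = 0.0656) and rose by 0.85 in skin (adjusted p = 0.0113). The averaged rise of S100a6 did not pass with no detection filter. The causes were not tested.

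With the replicate number as a block, 8 members passed in epidermis, 4 in skin and 6 on average, as without it, and 3711, 3576 and 2749 genes passed in all. Between tissues the block gave 5 members on average against 6 (S100a1 lost, adjusted p = 0.0535) and 4 in Krt1+/+ against 3 (S100a4 gained as lower in skin, −0.55, adjusted p = 0.0244). The check of deviations cannot decide whether the numbers pair the samples, as only same-numbered arrays were compared. Its highest correlation, 0.279, was between replicate 2 of Krt1-/- epidermis and of Krt1-/- skin. Signals near background limit what S100a1 and S100a4 can show, and how firm the sizes for S100a7a, Crnn, Tchhl1 and Il1b are.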
